A study of Bos taurus with 40 samples.

Results

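The genes examined were those of 4 enzymes of fatty acid and triglyceride synthesis, among 8531 genes listed in the deposited files. They were *ACACA* (ENSBTAG00000017567), *FASN* (ENSBTAG00000015980), *SCD* (ENSBTAG00000045728) and *DGAT1* (ENSBTAG00000026356). The rule names them by function and by Ensembl identifier and uses no measured value of theirs, but they were chosen with earlier results of these data known. All 4 were listed for bull liver, heifer liver and bull muscle, and 3 for heifer muscle, where *DGAT1* was not among the 5547 listed genes. Absence from that list does not show that the gene was not expressed.

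RNA had been sequenced from hepatic tissue and *M. longissimus* skeletal muscle of purebred Simmental bulls and heifers of high or low residual feed intake (RFI). RFI compares what an animal eats with the intake that its size, gain and fatness predict, and an efficient animal has a low value. The 40 samples formed 4 comparisons (bull liver, bull muscle, heifer liver and heifer muscle), each with 5 high and 5 low RFI samples. The animals of every group shared the breed and had been housed at about 15 months of age. They were the extremes of each sex for their own RFI, among calves bred from high and low ranking parents whose 2 lines had no sire in common. Which line each sampled animal came from is not given in the sources used here, so sire line could not be set beside RFI group. Of the 20 tags in each tissue, 5 occurred in both, so most liver and muscle samples could not be paired by tag. The study describes muscle and liver biopsies from the 5 high and 5 low RFI animals chosen in each sex. Most short tags carry a letter of the tissue (M or L), so 2 unmatched tags may belong to the same animal. Each sample was taken as 1 animal by its tag, and tests between tissues treated unmatched samples as independent.

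*ACACA* encodes the carboxylase that turns acetyl-CoA into malonyl-CoA, the committed step of fatty acid synthesis. *FASN*, fatty acid synthase, builds palmitate from malonyl-CoA, and *SCD*, stearoyl-CoA desaturase, places a double bond in saturated fatty acids. *DGAT1* adds the last fatty acid to diacylglycerol and so completes a triglyceride. In many mammals *ACACA*, *FASN* and *SCD* are known to be switched on together by the transcription factors SREBP1 and LXR when energy is plentiful. In cattle most fatty acid synthesis takes place in adipose tissue rather than in liver, and in muscle fat is stored both inside fibres and in adipocytes between them.

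Values are CPM, the share of a sample's counted reads that fell on a gene, on a scale common to all samples. The recovered depth ranged from 2368340 to 60929308 reads with a median of 19749118. In the tests below 7 libraries were set apart because they carried the profile of the other tissue. These were bull muscle M12 (high RFI), M6, 2712 and M74 (low RFI), and heifer liver 2728 (high RFI), L58 and L16 (low RFI). On a scale where 0% is the profile of the labelled tissue and 100% that of the other, they stood at 46.3 to 114%, and the remaining 33 libraries at 0.811% or less. The tests use these 33, with 5 high and 5 low RFI samples in bull liver and in heifer muscle, 4 and 3 in heifer liver, and 4 and 2 in bull muscle. In these libraries a member gene had 67 to 10787 reads, the lowest being *DGAT1* in the muscle of high RFI bull 2641, where counting error alone is 12.2%. As the biopsies were of whole tissue, a change in the number of cells of a type and a change in RNA per cell cannot be told apart.

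*ACACA*, *FASN* and *SCD* varied most between animals in heifer muscle, as did the median gene, and there they rose and fell together. *ACACA* was at 12.1, 16.1, 17.3, 36.9 and 60.0 CPM in the high RFI heifers and at 6.91, 9.02, 17.2, 19.3 and 33.9 CPM in the low RFI heifers. *FASN* was at 46.6, 50.6, 71.7, 283 and 545 CPM in the high RFI group and at 32.1, 39.4, 90.8, 107 and 272 CPM in the low RFI group. *SCD* was at 9.68, 16.8, 20.3, 68.6 and 103 CPM in the high RFI group and at 7.75, 9.11, 25.4, 43.6 and 59.5 CPM in the low RFI group. For all 3 genes the highest heifers were 2647 and M73 of the high RFI group and 2724 of the low RFI group, in that order, and the lowest was M62 of the low RFI group. From the lowest to the highest heifer, *FASN* spanned 17-fold, *SCD* 13.3-fold and *ACACA* 8.68-fold.

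**Figure D1:**
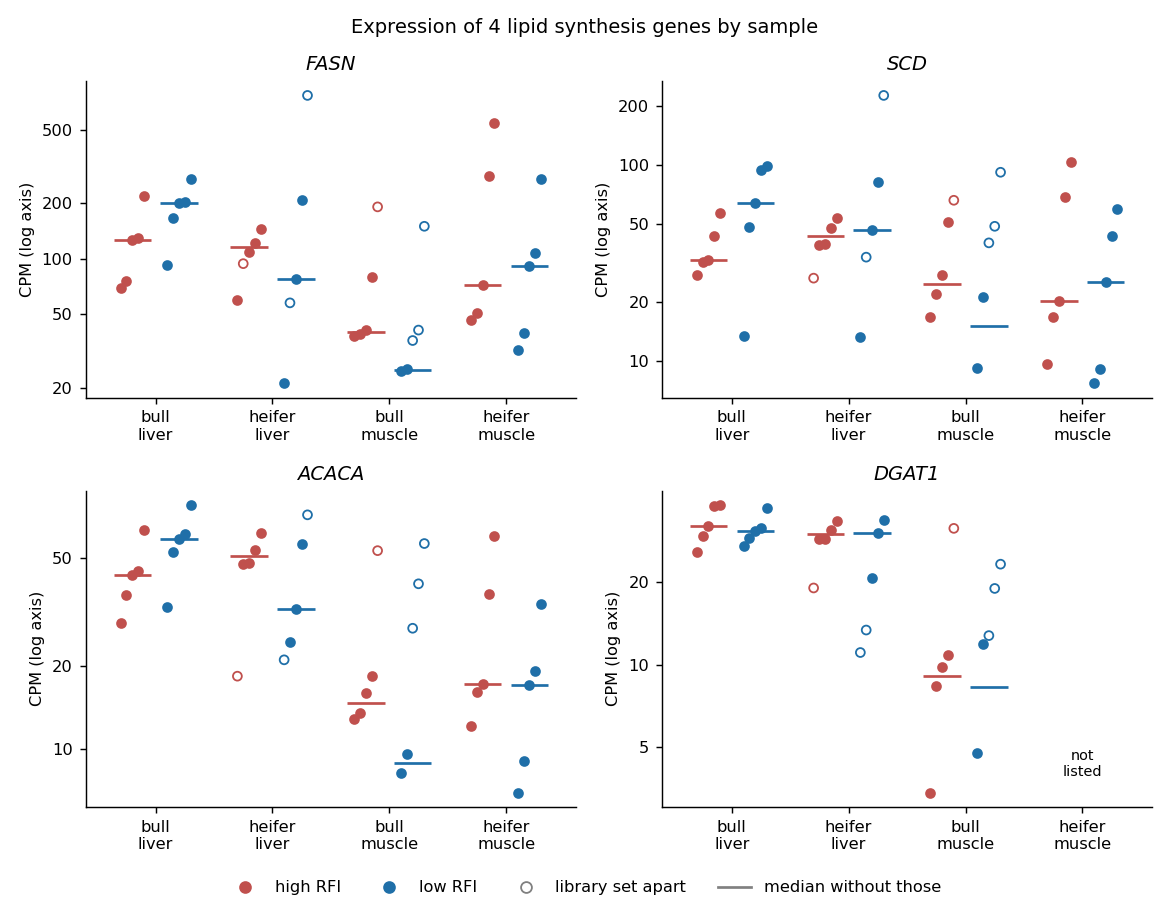
CPM on a log axis (vertical) of *FASN*, *SCD*, *ACACA* and *DGAT1* in each sample, by sex and tissue (horizontal), with high RFI in red and low RFI in blue. Filled points are the 33 libraries of the tests, open points the 7 libraries set apart, and bars the group medians without the latter. In heifer muscle *FASN* reached 545 CPM in one high RFI heifer, and the RFI groups overlapped for all 3 listed genes.

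The 3 heifers with the most *FASN* had 19793166 reads (2647), 28319168 reads (M73) and 23020371 reads (2724), within the 10706431 to 30300667 reads of heifer muscle. Their liver profile was 0.104%, 0.0621% and 0.268% by the measure above. Markers of other cell types, adipocytes among them, could not be looked up, as the files do not pair their identifiers with symbols.

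The spread within RFI groups, as the residual SD on the log2(CPM + 1) scale, was 1.42 for *FASN*, 1.34 for *SCD* and 0.91 for *ACACA* in heifer muscle, where the median of all genes was 0.44. That median was lower in the other comparisons, at 0.21 in bull liver, 0.24 in heifer liver and 0.31 in bull muscle. Of the 5547 genes, 35 had a larger SD than *FASN* (0.631%) and 56 a larger one than *SCD* (1.01%). For *ACACA*, 9.0% of genes varied more. The order of *FASN* and *SCD* changed between comparisons, but both stood in the upper tail in liver too. In bull liver the SD was 0.84 for *SCD*, 0.63 for *FASN* and 0.42 for *ACACA*, with 1.02%, 2.11% and 7.13% of 7363 genes above them. In heifer liver it was 1.07 for *FASN* and 0.79 for *SCD*, with 0.595% and 1.55% of 7231 genes above them, and 0.34 for *ACACA*, with 24.2%.

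*DGAT1*, which acts at the end of the pathway, lay near the middle of the genes in liver. Its SD was 0.18 in bull liver and 0.27 in heifer liver, and 64.2% and 41.6% of genes varied more. In bull muscle the picture was less marked. The SD was 0.84 for *SCD* (4.48% of 6003 genes above it), 0.53 for *DGAT1* (16.6%), 0.42 for *FASN* (28.2%) and 0.38 for *ACACA* (34.6%), over 6 samples.

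**Figure D2:**
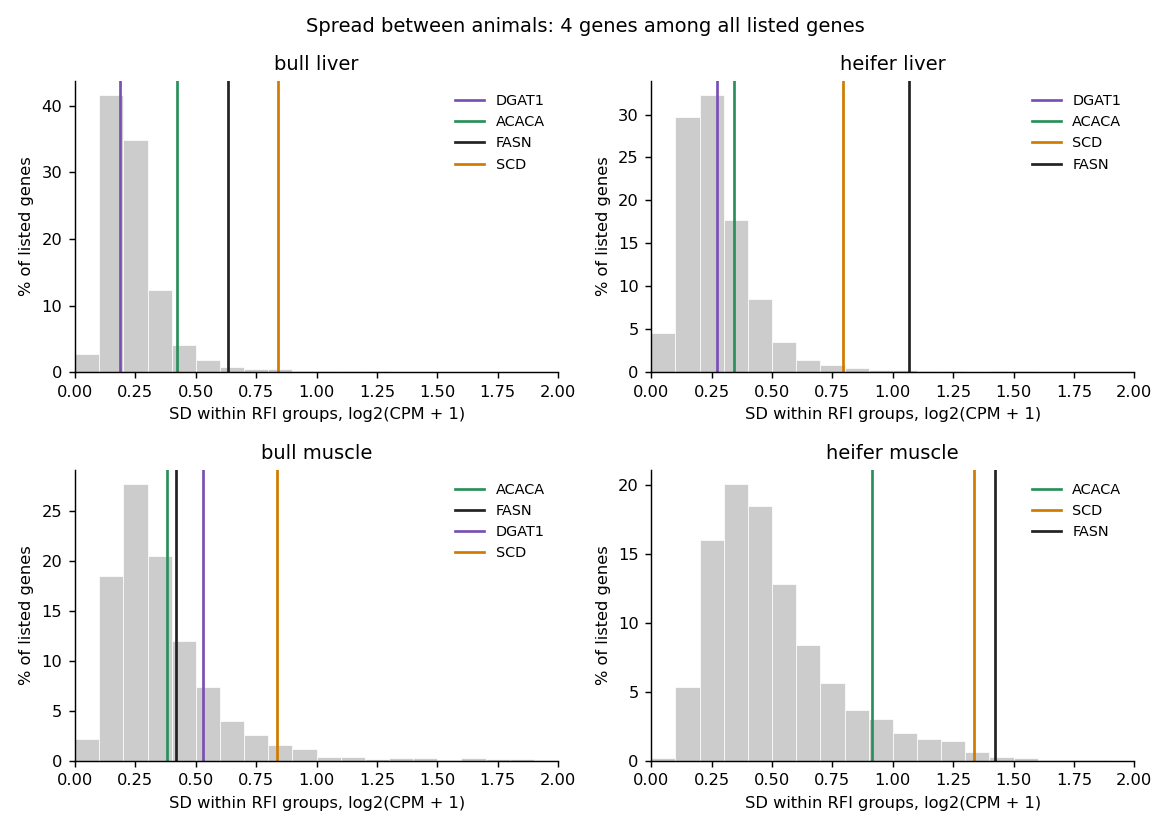
SD between animals within RFI groups on the log2(CPM + 1) scale (horizontal) against the percent of listed genes (vertical, grey bars) in each comparison, with a coloured line for each member. *FASN* and *SCD* lie far to the right of the bulk of genes in 3 of the 4 comparisons, at 1.42 and 1.34 in heifer muscle, and *DGAT1* lies within the bulk in liver.

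The co-variation of the members between animals was measured as Pearson's r and Spearman's rho of log2(CPM + 1) for 21 pairs, with p adjusted over these 21 by the method of Benjamini and Hochberg. In heifer muscle all 3 pairs passed an adjusted p of 0.05 by permutation test. *FASN* with *SCD* had r = 0.951 and rho = 0.927 (permutation p = 2e-05 and 0.00031, adjusted 0.00042 and 0.00651). *FASN* with *ACACA* had r = 0.946 and rho = 0.867 (permutation p = 4e-05 and 0.00221, adjusted 0.00042 and 0.0155). *ACACA* with *SCD* had r = 0.930 and rho = 0.879 (permutation p = 9e-05 and 0.00172, adjusted 0.00063 and 0.0155).

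On the scaled log2 values used for r, the heifers farthest from the median of *FASN* and of *SCD* were 2647 and 2724. Without them r was 0.922 for *FASN* with *SCD*, 0.876 for *FASN* with *ACACA* and 0.872 for *ACACA* with *SCD*. Without M73 as well, a removal chosen after these values had been seen, r over 7 heifers was 0.892, 0.794 and 0.801 in the same order, and none passed (exact permutation tests, adjusted p = 0.0542, 0.0714 and 0.0778). With the RFI group means removed it was 0.952, 0.950 and 0.940. When the 6 heifers tagged with 4 digits were taken alone, it was 0.974, 0.956 and 0.926. A doubling of *FASN* went with a rise of 0.89 on the log2 scale in *SCD* and of 0.62 in *ACACA*.

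In heifer muscle the members also stood high among all genes by likeness to one another. There *SCD* was the third and *ACACA* the fourth of 5546 genes by r with *FASN*, and 0.0361% and 0.0541% of genes were closer. By r with *SCD*, *FASN* was the second of these genes and *ACACA* the fourth. The ranks were lower elsewhere. In bull muscle 16.4% of 6003 genes were closer to *FASN* than *SCD* was, and 7.03% closer than *ACACA*. These shares were 1.68% and 2.08% in bull liver and 0.332% and 1.20% in heifer liver. In heifer liver 8.82% of genes were closer to *SCD* than *ACACA* was. Correlations of genes over the same libraries share those libraries and their depths, and the ranks are a description.

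In bull liver the same 3 pairs passed, at lower r. *ACACA* with *SCD* had r = 0.833 and rho = 0.806 (permutation p = 0.00315 and 0.00759, adjusted 0.0165 and 0.0319). *FASN* with *SCD* had r = 0.758 and rho = 0.818 (permutation p = 0.0116 and 0.00616, adjusted 0.0406 and 0.0319). *FASN* with *ACACA* had r = 0.739 and rho = 0.770 (permutation p = 0.0172 and 0.0126, adjusted 0.0451 and 0.0441). High RFI bulls 68 and 2703 had the least *FASN* but middling *ACACA*, and without them r rose to 0.942 for *FASN* with *SCD* and 0.933 for *FASN* with *ACACA*. The pair *SCD* with *ACACA* was at 0.792 without 2659 and 2669. With the RFI group means removed, *FASN* with *ACACA* fell to 0.652 and no longer passed (permutation test, adjusted p = 0.0879), and with scaling by library size only it was 0.714 and did not pass either (permutation test, adjusted p = 0.0583). When each of the 10 bulls was left out in turn, *FASN* with *ACACA* and *FASN* with *SCD* missed the threshold 7 times each (r down to 0.637 and 0.679), and *ACACA* with *SCD* missed it 1 time, without 2669 (r = 0.771, permutation test, adjusted p = 0.0556).

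No pair of *DGAT1* with another member passed in bull liver over the 10 bulls. Its r was -0.13 with *FASN*, 0.076 with *SCD* and 0.18 with *ACACA* (permutation tests, adjusted p of 0.781 to 0.925). For *ACACA* with *DGAT1*, r turned to -0.75 without 2669 and 2641 and then passed (exact permutation test, adjusted p = 0.0457), so its sign and its call depended on which bulls were included.

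In heifer liver, with 7 samples, *FASN* had r = 0.903 with *SCD* (exact permutation p = 0.0113, adjusted 0.0406) and 0.847 with *ACACA* (exact permutation p = 0.0159, adjusted 0.0451). By rho neither passed, at 0.679 and 0.857 (exact permutation tests, adjusted p = 0.23 and 0.0714). Without low RFI heifers 2632 and L59, the lowest and the highest for *FASN*, r was 0.111 and 0.532. When each of the 7 heifers was left out in turn, both pairs missed the threshold 4 times, without 2670, L59 or 2632 and without 2705 (*SCD*) or 2704 (*ACACA*), with r down to 0.667 and 0.595. *ACACA* with *SCD* had r = 0.721 and did not pass (exact permutation test, adjusted p = 0.138), and the pairs with *DGAT1* were at -0.43 to -0.052. In bull muscle, with 6 samples, no pair passed under the main scaling. The highest, *ACACA* with *SCD*, had r = 0.911 and rho = 0.771 (exact permutation tests, adjusted p = 0.0519 and 0.23), and r was 0.318 without 2641 and M67. That pair passed under median-of-ratios scaling (r = 0.917, exact permutation test, adjusted p = 0.0421) and with the RFI group means removed (r = 0.908, exact permutation test, adjusted p = 0.0490). With all 10 libraries under their labels, which puts liver profiles beside muscle profiles, r in bull muscle was 0.921 for *ACACA* with *SCD*, 0.780 for *FASN* with *ACACA* and 0.731 for *FASN* with *SCD*.

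**Figure D3:**
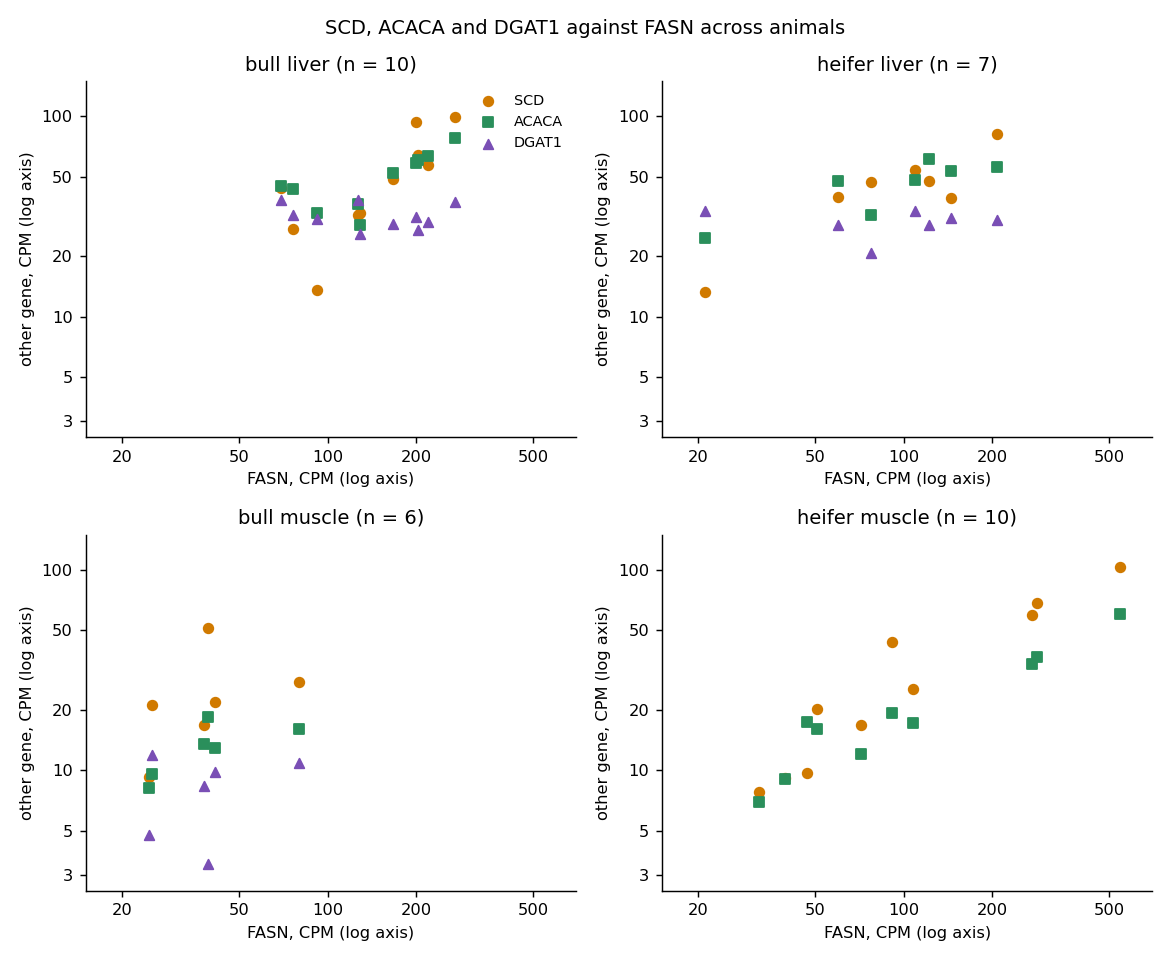
CPM of *SCD*, *ACACA* and *DGAT1* (vertical, log axis) against CPM of *FASN* (horizontal, log axis), each point 1 animal, without the libraries set apart. In heifer muscle *SCD* and *ACACA* were higher where *FASN* was higher (r = 0.951 and 0.946), but not at every step. *ACACA* was at 17.3 CPM in heifer 2628 (46.6 CPM of *FASN*) and at 17.2 CPM in heifer 2690 (107 CPM). Without 2647, M73 and 2724, r was 0.892 for *SCD* and 0.794 for *ACACA*. *DGAT1* does not climb with *FASN* in liver (r = -0.13 in bulls and -0.26 in heifers).

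Over both sexes of a tissue, with the means of the 4 sex by RFI groups removed, the pooled r of the same 3 genes was high. In muscle (16 samples) r was 0.929 for *ACACA* with *SCD*, 0.915 for *ACACA* with *FASN* and 0.880 for *FASN* with *SCD*. By likeness to *FASN* in these samples, *ACACA* was the third and *SCD* the eighth of 5357 genes. Taken apart, the sexes gave unlike values, and the difference in r between them was not tested. In the 6 bulls alone, with RFI group means removed, *FASN* was at 0.402 with *ACACA* and 0.325 with *SCD*. For *ACACA* with *SCD* it was 0.908 there. In the 10 heifers alone these were 0.950, 0.952 and 0.940. With the RFI group means left in, r of *FASN* in the bulls was 0.727 with *ACACA* and 0.570 with *SCD*. Without bulls M65 and 2723 it was 0.958 and 0.970. In liver (17 samples) r was 0.819 for *ACACA* with *SCD*, 0.784 for *FASN* with *SCD* and 0.724 for *ACACA* with *FASN*, and *SCD* was number 20 of 7044 genes by likeness to *FASN*. *DGAT1* was at -0.23 with *FASN*, -0.15 with *SCD* and 0.065 with *ACACA* in liver, and 77.2% of genes were closer to *FASN* than it was.

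The 5 genes most like each member in a tissue were taken by this r. In muscle, members held 4 of the 15 places of the 3 lists, and r ranged from 0.901 to 0.981. In liver they held 0 of the 20 places of the 4 lists, and r ranged from 0.822 to 0.961. The gene closest to *SCD* was ENSBTAG00000047957 in both tissues, with r = 0.938 in liver and 0.981 in muscle, and in muscle it was also the closest to *ACACA* (r = 0.934). The gene closest to *FASN* in liver was ENSBTAG00000007840, with r = 0.961. Neither has a symbol in the files.

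The second question was whether the enzymes differed between high and low RFI animals. Differences are low minus high RFI on the log2(CPM + 1) scale, tested with limma over every listed gene at a Benjamini-Hochberg adjusted p below 0.1. No member passed in any of the 4 comparisons, and neither did any other gene. The study, which tested counts with edgeR at the same threshold, did report genes in bull liver and in heifer muscle. None of those was a member. Counts were not tested here, and the study had more genes expressed in each comparison than are listed here. The absence of calls therefore holds for this limma test on the log scale over the listed genes. The share of genes called was 0.0% of 7363 in bull liver, 0.0% of 6003 in bull muscle, 0.0% of 7231 in heifer liver and 0.0% of 5547 in heifer muscle. In the same limma fits 555, 123, 181 and 91 genes, respectively, had an unadjusted p below 0.05. Leaving out 1 animal gave up to 7 called genes in bull liver (without 2713) and 2 in heifer liver (without L59), and a member was not among them.

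In bull liver *ACACA* was at 28.7, 36.5, 43.2, 44.7 and 63.2 CPM in high RFI and at 33, 52.4, 58.5, 60.7 and 77.9 CPM in low RFI bulls. *FASN* was at 69.2, 76.0, 127, 129 and 219 CPM in high RFI and at 92.2, 167, 199.5, 203 and 272 CPM in low RFI bulls. *SCD* was at 27.5, 32.2, 33, 43.6 and 57.2 CPM in high RFI and at 13.5, 48.6, 64.4, 93.7 and 98.9 CPM in low RFI bulls. For each of these genes 4 of the 5 low RFI bulls lay above the high RFI median, and bull 2659 of the low RFI group lay among or below the high RFI bulls. The groups overlapped for every member.

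The difference in bull liver was 0.42 ± 0.22 for *ACACA*, 0.68 ± 0.33 for *FASN* and 0.53 ± 0.43 for *SCD* (estimate ± SE; limma adjusted p = 0.698, 0.669 and 0.806). For *FASN* the fold was 1.60 on this scale, with a 95% interval of -0.030 to 1.39 in log2 units, and 0.638% of genes had a larger difference in size. Exact permutation tests over the 252 assignments of the bulls gave p = 0.151, 0.143 and 0.357 (two-sided), where the smallest possible was 0.00794. *DGAT1* was at 25.7 to 38.3 CPM in high and 27.2 to 37.5 CPM in low RFI bulls, with a difference of -0.01 ± 0.12 and a 95% interval of -0.27 to 0.25.

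In heifer muscle, where the spread between animals was largest, the difference was -0.40 ± 0.50 for *ACACA*, -0.33 ± 0.76 for *FASN* and -0.19 ± 0.71 for *SCD* (limma adjusted p = 0.999 for each). The 95% interval of *FASN* ran from -1.98 to 1.32, so differences of either sign and of over 2-fold were within it. Exact permutation p was 0.516, 0.746 and 0.833. Among 4-digit tags alone the difference turned to 0.20 for *FASN* and 0.06 for *SCD*.

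In bull muscle 4 high and 2 low RFI bulls were compared. *ACACA* was at 12.9, 13.5, 16 and 18.5 CPM in high RFI and at 8.13 and 9.58 CPM in low RFI bulls. *FASN* was at 38.0, 39.1, 41.2 and 79.6 CPM in high RFI and at 24.7 and 25.2 CPM in low RFI bulls. For both genes the low RFI bulls lay below every high RFI bull, as they did for 6.31% of the 6004 listed genes. *SCD* was at 16.9, 21.9, 27.7 and 51.3 CPM in high RFI and at 9.22 and 21.2 CPM in low RFI bulls, and these groups overlapped.

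The difference in bull muscle was -0.67 ± 0.30 for *ACACA*, -0.85 ± 0.30 for *FASN* and -0.86 ± 0.52 for *SCD* (limma adjusted p = 0.893 for each). For *FASN* the fold was 0.556, with a 95% interval of -1.54 to -0.16 in log2 units before any adjustment, and it was number 23 of 6003 genes by p. Exact permutation p was 0.133 for *ACACA* and for *FASN* and 0.4 for *SCD*. As 15 assignments exist, the smallest possible p was 0.0667, and this comparison could not reach 0.05. *DGAT1* was at 3.4, 8.37, 9.81 and 10.8 CPM in high RFI and at 4.75 and 11.9 CPM in low RFI bulls, with a difference of 0.06 ± 0.43 (limma adjusted p = 0.988). With all 10 libraries under their labels the difference was -0.49 for *FASN*, 0.22 for *ACACA* and 0.06 for *SCD*, so that *ACACA* and *SCD* changed sign.

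In heifer liver *ACACA* was at 47.3, 47.9, 53.1 and 61.4 CPM in high RFI and at 24.6, 32.3 and 55.9 CPM in low RFI heifers. *FASN* was at 59.5, 109, 122 and 144 CPM in high RFI and at 21.1, 77.2 and 208 CPM in low RFI heifers. *SCD* was at 39.1, 39.4, 47.5 and 53.9 CPM in high RFI and at 13.3, 46.9 and 82.0 CPM in low RFI heifers. The low RFI heifers 2632 and L59 were the lowest and the highest for *FASN* and *SCD*, and the high RFI heifers lay between them. The difference was -0.47 ± 0.23 for *ACACA*, -0.47 ± 0.61 for *FASN*, -0.17 ± 0.46 for *SCD* and -0.06 ± 0.19 for *DGAT1* (limma adjusted p = 1.00 for each). Exact permutation p was 0.143, 0.657, 0.829 and 0.829. Without L59 the *FASN* difference was -1.22, and without 2632 it was 0.34. With all 10 libraries under their labels it was 0.40 for *FASN*, 0.67 for *SCD* and 0.09 for *ACACA*, so that all 3 changed sign. Among the added libraries L58, at 114% of the muscle profile, had 769 CPM of *FASN* and 226 CPM of *SCD*.

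**Figure D4:**
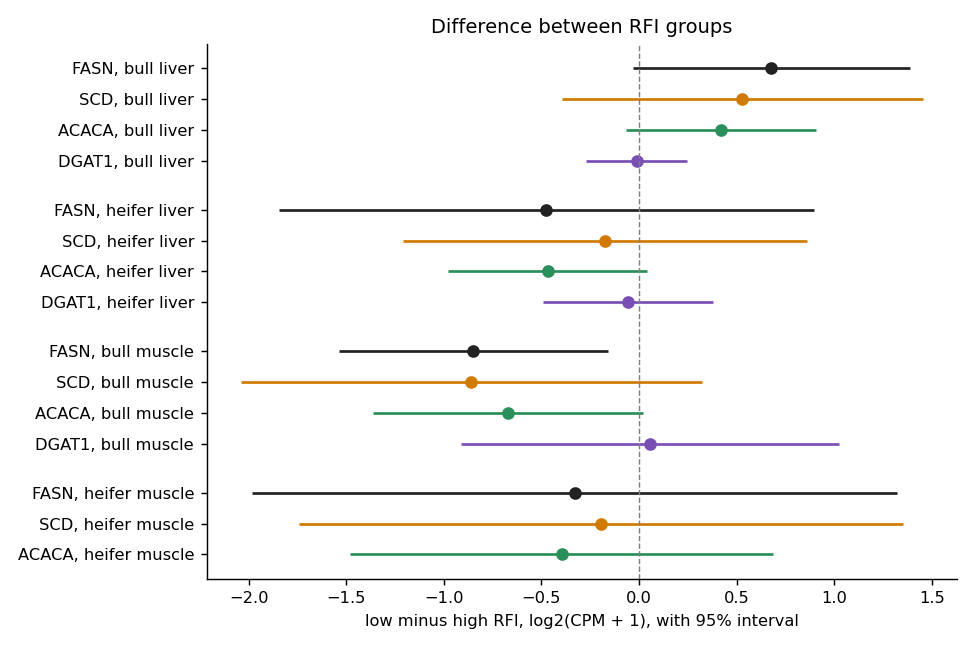
Difference between low and high RFI (horizontal, log2(CPM + 1) scale) of each member in each comparison, as the limma estimate (points) with its unadjusted 95% interval (lines). The interval excludes 0 for *FASN* in bull muscle alone (-1.54 to -0.16), where the adjusted p was 0.893.

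For *ACACA*, *FASN* and *SCD* the estimates were above 0 in bull liver and below 0 in heifer liver, and this contrast was tested itself as an RFI by sex interaction over the 17 liver samples. It was 0.89 ± 0.35 for *ACACA*, 1.15 ± 0.71 for *FASN*, 0.70 ± 0.71 for *SCD* and 0.04 ± 0.22 for *DGAT1* (limma adjusted p = 0.959, 0.959, 0.960 and 0.989). The share of genes called was 0.0% of 7045, and 256 had an unadjusted p below 0.05. In muscle the interaction was -0.30 ± 0.75 for *ACACA*, -0.55 ± 1.12 for *FASN* and -0.69 ± 1.12 for *SCD* (limma adjusted p = 1.00 for each), with 0.0% of 5358 genes called and 44 below an unadjusted p of 0.05.

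The sexes were then compared over both RFI groups of a tissue, each group with equal weight. Whether bull and heifer libraries were made and sequenced together is not given in the sources used here. In muscle *FASN* had the largest difference of the members. Bull minus heifer was -1.52 ± 0.56 on the log2 scale, a fold of 0.348, with a 95% interval of -2.71 to -0.34. Its adjusted p in limma was 0.889, and 0.0747% of the 5358 genes had a larger difference in size. The bull samples were at 24.7 to 79.6 CPM with a median of 38.6 CPM and the heifer samples at 32.1 to 545 CPM with a median of 81.2 CPM, so that they overlapped. *ACACA* was at -0.68 ± 0.37 and *SCD* at -0.40 ± 0.56 (limma adjusted p = 0.889 for both). In this comparison 0.0933% of genes were called, and no member was among them. With all libraries under their labels *FASN* was at -0.90, and *ACACA* and *SCD* changed sign to 0.15 and 0.35.

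In liver bull minus heifer was 0.69 ± 0.36 for *FASN* (limma adjusted p = 0.37). The bulls were at 69.2 to 272 CPM with a median of 148 CPM, and the heifers at 21.1 to 208 CPM with a median of 109 CPM. Without heifer L59 the difference was 1.07 and passed (limma adjusted p = 0.0807), and with all libraries under their labels it was 0.21. *ACACA* (0.12 ± 0.18), *SCD* (0.09 ± 0.35) and *DGAT1* (0.09 ± 0.11) differed less, and none of the members was among the 4.49% of 7045 genes called.

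Between the tissues, *ACACA*, *FASN* and *SCD* were called higher in liver than in muscle over the 33 libraries. The difference was 1.44 ± 0.21 for *ACACA*, 0.79 ± 0.34 for *FASN* and 0.78 ± 0.35 for *SCD* (limma adjusted p = 3.22e-07, 0.0390 and 0.0401), or folds of 2.71, 1.72 and 1.72. Of the 4416 genes listed in all 4 comparisons, 42.5% were called higher in liver and 39.6% lower, and 23.3% had a larger difference in size than *ACACA* and 47.3% than *FASN*. The call was lost for *FASN* without heifer 2704 (0.63, limma adjusted p = 0.103) or L59 (0.60, limma adjusted p = 0.11). For *SCD* it was lost with all libraries under their labels (0.54, limma adjusted p = 0.143). Without bull M67 the *SCD* difference was 0.65.

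The 2 sexes gave unlike differences for *FASN*. Fitted in bulls alone, it was 1.72 ± 0.27 higher in liver (limma adjusted p = 1.57e-05), a fold of 3.29, and every bull liver sample but those of 68 and 2703 lay above the highest bull muscle sample of 79.6 CPM. In heifers alone it was -0.32 ± 0.57 (limma adjusted p = 0.640), and 3 muscle samples exceeded the highest liver sample of 208 CPM. *ACACA* was higher in liver in both sexes, by 1.67 ± 0.20 in bulls and 1.04 ± 0.34 in heifers (limma adjusted p = 5.83e-07 and 0.0125). *SCD* was called higher in liver in bulls, by 0.85 ± 0.39 (limma adjusted p = 0.0536), and was at 0.54 ± 0.51 in heifers (limma adjusted p = 0.363). *DGAT1*, tested in bulls only, was 1.66 ± 0.17 higher in liver (limma adjusted p = 5.28e-08), with 25.7 to 38.3 CPM in liver and 3.4 to 11.9 CPM in muscle. Of the 5035 genes tested in bulls, 21.4% had a larger difference in size than *DGAT1*. Called higher in liver were 40.4% of 5035 genes in bulls and 36.1% of 4579 genes in heifers.

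**Figure D5:**
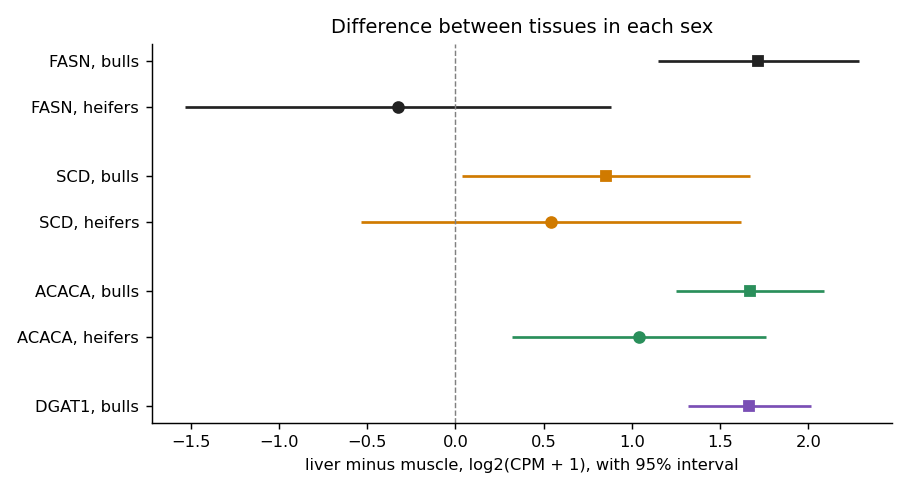
Difference between liver and muscle (horizontal, log2(CPM + 1) scale) of each member in bulls (squares) and heifers (circles), as the limma estimate with its unadjusted 95% interval. *FASN* was at 1.72 in bulls and -0.32 in heifers, whereas *ACACA* was above 0 in both.

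The test of that contrast, a tissue by sex interaction added after these values had been seen, gave 2.20 ± 0.69 for *FASN*, 0.78 ± 0.42 for *ACACA* and 0.47 ± 0.69 for *SCD* (limma adjusted p = 0.398, 0.933 and 0.933). *FASN* was number 37 of 4416 genes by p and had a larger difference in size than all but 0.0453% of them, but did not pass, and 0.204% of genes were called. The 4 animals whose tag had kept libraries in both tissues were mixed. For *FASN*, liver over muscle was 3.30 in high RFI bull 2641, 8.05 in low RFI bull 2723, 2.84 in high RFI heifer 2704 and 0.537 in low RFI heifer 2632. For *ACACA* it was 1.55, 6.34, 3.30 and 2.73, above 1 in every one of these animals. For *SCD* it was 0.644, 3.03, 1.93 and 1.46, so that bull 2641 had less *SCD* in liver than in muscle.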

How the data were processed

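Per the labels and the study's methods, the authors aligned single-end TruSeq mRNA reads to UMD3.1 with STAR 2.5.1, counted them on protein-coding genes (Ensembl 88) with HTSeq 0.6.1p2, and tested them with edgeR. The deposited values are CPM, 1 sample per file. How they were scaled and which genes were listed is not given in the sources used here. The lowest mean of any listed gene was 7.37 CPM in heifer muscle and 7.23 CPM in bull muscle, so genes of low level were not listed. Each value was a whole multiple of 1 read to within 0.000446 of a read, which gave the depth of each sample. The last 1359 rows of the bull muscle files were copies of the liver file of bull 2723 (low RFI) and were dropped, as were 16877 rows without an identifier in all files, and 1 stray letter was ignored. No column of another sample was present (0).

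Scale factors came from trimmed means of M values (30% of fold changes and 5% of levels trimmed), and log2(CPM + 1) was fitted with limma 3.58.1 in R 4.3.3 (trended variance, Benjamini-Hochberg adjusted p below 0.1) over listed genes with more than 1 CPM in as many samples as the smaller group. The pseudocount understates changes of genes with low values. Permutation tests and correlations (Python 3.11.15, numpy 2.4.6, pandas 2.3.3, scipy 1.17.1) were two-sided, exact under 10 samples and with 100000 resamples for correlations over 10. Plots were drawn with matplotlib 3.10.9. The scripts were tested on simulated data. The members, the gene lists and the libraries set apart were chosen with earlier results of these data known. Named genes are the members, and the 5 genes of highest r with each in a tissue, most of which have no symbol here. Lists and cell type markers held by symbol (158 symbols) matched 0 identifiers and were not analysed. The share of the other tissue was read from genes differing over 32-fold between bull liver and heifer muscle. No transcript lengths were at hand, so levels were not compared between genes. Alternatives were other scalings, pseudocounts of 0.1 and 5 CPM, filters, thresholds, tag style, a replicate block by animal, leaving out each animal, and all libraries under their labels. Intervals cover the spread between these samples only.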

Additional observations from a re-analysis of the deposited data

How the results depend on the processing

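Of 331 refits of a member outside the removal of single animals, 315 kept direction and side of the threshold, 2 lost the call and 14 changed sign. Of 528 refits without 1 animal these were 500, 3 and 24, and 1 gained a call. *ACACA* kept its liver against muscle call in every one. Changing the threshold or the filter left a member's estimate as it was, and most member tests lay far from the threshold. The counts of refits above therefore do not measure how robust a result is. The edgeR and DESeq2 tests planned on recovered reads were not run, and the lists held by symbol were not analysed here. The animal block (tags shared by both tissues, correlation 0.2835) changed no liver against muscle call, with *FASN* at 0.83 (limma adjusted p = 0.0224). Counting error was widest where a member had fewest reads, down to 67 for *DGAT1* in the muscle of bull 2641. The cause of the changes below was not tested.

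With all libraries under their labels, the RFI difference changed sign for *SCD* (0.060) and *ACACA* (0.22) in bull muscle and for *FASN* (0.40), *SCD* (0.67) and *ACACA* (0.090) in heifer liver. Bull minus heifer changed for *SCD* in liver (-0.26) and for *SCD* (0.35) and *ACACA* (0.15) in muscle. The RFI by sex interaction changed for *SCD* in liver (-0.17) and for *SCD* (0.29) and *ACACA* (0.65) in muscle. The tissue by sex interaction changed for *SCD* (-0.35), with 1 gene called in place of 9. Liver against muscle was 0.54 for *SCD*, no longer called, and 25 genes in place of 316 were called between the sexes in liver. The mean r of the pairs in bull muscle went from 0.237 to 0.744. There r of *DGAT1* was 0.682 with *FASN*, 0.596 with *SCD* and 0.757 with *ACACA*, and in heifer liver 0.139 with *ACACA*.

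In heifers alone, liver against muscle was -0.32 for *FASN* and 0.54 for *SCD*. At an adjusted p below 0.05, 175 genes were called between the sexes in liver, and with library size only 2 in muscle in place of 5. With tag style as a covariate or in 4-digit tags only, *DGAT1* in bull liver was at 0.10. In 4-digit tags only, heifer muscle gave 0.20 for *FASN* and 0.064 for *SCD*, and bull liver an r of 0.204 for *FASN* with *DGAT1*. In short tags only, heifer liver had 1 high and 1 low RFI sample, which differed by 0.87 for *FASN*, 0.87 for *SCD* and 0.17 for *DGAT1*. Bull muscle then had 2 high and 1 low RFI samples, with -0.75 for *DGAT1*. Without the 2 samples farthest from the median, r with *DGAT1* in bull liver was 0.15 for *FASN*, -0.26 for *SCD* and -0.75 for *ACACA*, and the mean r in heifer muscle went from 0.942 to 0.890. Without the 3 heifers highest in *FASN*, an alternative added after the data were seen, it was 0.829. With library size only, r of *DGAT1* was 0.15 with *ACACA* in heifer liver and 0.266 with *FASN* in bull muscle, where it was 0.0017 under median-of-ratios scaling and 0.0074 with RFI group means removed.

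Leaving out each animal in turn gave these ranges. For RFI they were -0.084 to 0.035 (*DGAT1*, bull liver), -0.75 to 0.21 (*FASN*, heifer muscle), -0.54 to 0.25 (*SCD*, heifer muscle), -0.47 to 0.55 (*DGAT1*, bull muscle), and in heifer liver -1.22 to 0.34 (*FASN*), -0.70 to 0.51 (*SCD*) and -0.23 to 0.16 (*DGAT1*). In bull muscle a group left with 1 sample was assumed to vary like the other. Between the sexes in liver they were 0.30 to 1.07 (*FASN*), -0.25 to 0.35 (*SCD*) and -0.019 to 0.18 (*DGAT1*), and for the RFI by sex interaction in liver -0.17 to 0.22 (*DGAT1*). Liver against muscle ranged from 0.60 to 0.92 for *FASN* and from 0.65 to 0.89 for *SCD*. For r with *DGAT1* in bull liver they were -0.59 to 0.080 (*FASN*), -0.30 to 0.18 (*SCD*) and -0.23 to 0.37 (*ACACA*), and in heifer liver -0.53 to 0.44, -0.56 to 0.18 and -0.79 to 0.73. Genes called ranged from 0 to 7 for RFI in bull liver (7 without 2713), 0 to 2 in heifer liver (2 without L59), 0 to 4 for the RFI by sex interaction in liver (4 without bull 2713), 0 to 9 between the sexes in muscle (0 without bull M67, 9 without heifer 2628), and 3 to 23 for the tissue by sex interaction (3 without bull 2723, 23 without heifer 2628).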

Other observations

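Other genes whose symbols are known from the study were set beside the members over animals, with the sex by RFI group means removed. In liver (17 samples), *DBP*, a clock-controlled transcription factor, had the highest r in size, at -0.76 with *FASN* and -0.63 with *SCD*. *GSTT1*, a glutathione transferase, was at -0.67 with *FASN* and -0.62 with *SCD*, and *CRELD2*, an endoplasmic reticulum protein, was at 0.62 with *DGAT1*. In muscle (16 samples) the mitochondrially encoded *cytb*, *COX1*, *ND5*, *COX3* and *ND6* were at 0.68, 0.66, 0.64, 0.62 and 0.56 with *SCD*. With *FASN* they were lower, at 0.40, 0.36, 0.31, 0.36 and 0.22, and with *ACACA* they were at 0.43 to 0.60. In liver the same genes were at -0.017 to 0.36 with *SCD* and at -0.058 to 0.20 with *FASN*. These are descriptions across samples that share library, depth and scaling, with no test.

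Among the libraries set apart, members differed widely. In heifer liver L58 had 769 CPM of *FASN* and L16 57.6 CPM, although both carried most of the muscle profile (114% and 80.4%). In bull muscle, low RFI bull 2712 had 149.9 CPM of *FASN*, 91.8 CPM of *SCD* and 56.3 CPM of *ACACA* in the library labelled muscle, beside 199.5, 93.7 and 58.5 CPM in its liver library.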
